A study of Mus musculus with 26 samples.

Results

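The genes described here encode the Wnt ligands, the R-spondins, their receptors, the secreted Wnt antagonists and a few intracellular genes of the same pathway. They were chosen by name: every protein-coding gene of the Wnt, Fzd, Sfrp, Dkk, Rspo, Lgr4 to Lgr6 and Nkd families, together with Frzb, Wif1, Lrp5, Lrp6, Axin2, Lef1, Tcf7 and Notum. The rule found 54 of the 54532 genes in the count files: 19 ligands, 4 R-spondins, 15 receptors, 11 antagonists and 5 intracellular genes.

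RNA-seq was carried out on 26 libraries from the aorta of male mice. Untreated mice gave 4 groups of 4 libraries each: ascending aorta of C1041G/+ mice (libraries 2, 4, 6 and 8) and of their wild-type littermates (libraries 1, 3, 5 and 7), and descending aorta of C1041G/+ and of wild-type mice under the same numbers. The other 10 libraries were of C1041G/+ ascending aorta after an antisense oligonucleotide (ASO), 5 with AGT-ASO (libraries 14, 15, 18, 19 and 20) and 5 with a control ASO (libraries 8, 12, 13, 16 and 17). C1041G/+ mice carry 1 mutant copy of Fbn1, which encodes the microfibril protein fibrillin-1, and are used as a model of Marfan syndrome, while AGT-ASO is directed against the mRNA of angiotensinogen. No wild-type mice were among the antisense libraries, ages and mouse strain were not given in the labels, and the labels did not say whether a library was 1 mouse, so that p-values measure only the spread between these libraries.

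Wnt proteins are secreted, lipid-modified ligands that bind a Frizzled receptor together with the co-receptor Lrp5 or Lrp6. In the canonical branch this stabilises β-catenin, which enters the nucleus and switches on target genes through Tcf and Lef factors; Axin2, Nkd1, Nkd2, Lef1 and Notum are among the targets or feedback regulators. Sfrp proteins, Frzb and Wif1 bind Wnt ligands outside the cell, Dkk1, Dkk2 and Dkk4 block Lrp5 and Lrp6, and R-spondins bind Lgr4, Lgr5 or Lgr6 and keep Frizzled receptors at the cell surface. In the aorta the pathway is known for its part in outflow tract development and in smooth muscle cells.

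Each library held 17171652 to 28554356 counts. Expression is given as CPM, that is counts scaled to the library total after TMM correction, and levels of different genes are compared only as FPKM, CPM per kilobase of merged exon length. The untreated and the antisense libraries were scaled apart. Summed CPM of 6 smooth muscle marker genes ranged from 15290 to 28340 over all libraries. Markers of adjoining tissue were present too. Those of mesothelium, the cell layer that covers the heart and the root of the great vessels, summed to 357 to 605 CPM in C1041G/+ and 309 to 439.6 CPM in wild-type ascending aorta, but to 10.4 to 26.8 and 6.0 to 12.8 CPM in C1041G/+ and wild-type descending aorta. Those of heart muscle summed to 329 to 717 CPM with AGT-ASO, against 722 to 1528 CPM with control ASO, without overlap. In such bulk tissue, fewer cells of a type and less RNA per cell cannot be told apart.

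Of the 54 genes, 40 reached a mean of 1 CPM in at least 1 group. Dkk3, a divergent member of the Dickkopf family, stood highest on the FPKM scale, at 239 ± 26.9 in C1041G/+ and 246 ± 56.9 FPKM in wild-type ascending aorta (SD, n = 4 each), and at 346 ± 24.8 FPKM with AGT-ASO and 315 ± 7.48 FPKM with control ASO (n = 5 each). Dkk3 alone made up 38.1% to 69.6% of the summed FPKM of the 11 antagonists chosen by name, depending on the group. That sum leaves out Sost, an extracellular modulator of the pathway outside the chosen genes. Sost averaged 1122 ± 69.35 CPM in C1041G/+ and 1233 ± 205.9 CPM in wild-type ascending aorta (SD, n = 4 each). Sost was not put on the FPKM scale and is not ranked here. On that scale Sfrp1 and Sfrp2 stood below Dkk3, with highest group means of 105 and 89.5 FPKM, both in wild-type descending aorta. Wif1 had its highest mean, 65.6 FPKM, in wild-type ascending aorta and Sfrp4 its highest, 44.5 FPKM, in C1041G/+ descending aorta. Frzb, which encodes Sfrp3, lay between 10.7 and 16.8 FPKM over the 6 groups, and Dkk2 between 0.546 and 2.29 FPKM. Sfrp5 was low, at 0.154 to 0.630 FPKM.

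Among the 15 receptors, Fzd1 led in every group but wild-type descending aorta, where Lgr6 was higher (42.2 FPKM for Lgr6 and 38.9 FPKM for Fzd1). Fzd1 ranged over the groups from 38.9 to 69.0 FPKM, Fzd2 from 29.8 to 47.2, Fzd7 from 34.4 to 42.8 and Lgr6, an R-spondin receptor, from 27.6 to 42.2. Both co-receptors were found at similar levels, Lrp5 at 8.84 to 16.2 FPKM and Lrp6 at 10.2 to 15.5 FPKM. Fzd4 had 15.8 to 31.4 FPKM, Fzd6 4.51 to 10.3, Lgr4 5.93 to 7.99, Fzd8 4.70 to 6.84 and Fzd5 3.57 to 4.48 FPKM. Fzd3, Fzd9 and Fzd10 were low, with highest group means of 0.782, 1.39 and 0.520 FPKM, each in wild-type ascending aorta.

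Among the ligands, Wnt16 was the most abundant in every group, at 38.2 ± 4.80 FPKM in C1041G/+ and 24.8 ± 4.21 FPKM in wild-type ascending aorta and 21 ± 3.33 FPKM in C1041G/+ and 15.8 ± 5.13 FPKM in wild-type descending aorta (SD, n = 4 each). It made up 53.3 ± 2.81% of the summed FPKM of all 19 ligands in C1041G/+ and 37.2 ± 3.79% in wild-type ascending aorta. In descending aorta its share was 42.1 ± 5.13% in C1041G/+ and 38.6 ± 7.95% in wild-type mice (SD, n = 4 each). With AGT-ASO the share was 34.7 ± 4.85% and with control ASO 30.3 ± 6.50% (SD, n = 5 each). Wnt9a was next at 7.81 to 10.2 FPKM. Wnt5a, the best known ligand of the β-catenin-independent branch, stood at 4.58 to 8.54 FPKM, below Wnt9a in every group and also below Wnt2 in C1041G/+ descending aorta (5.73 FPKM for Wnt5a and 6.19 FPKM for Wnt2). Wnt11, another ligand of that branch, had 1.36 to 2.15 FPKM and Wnt6 0.231 to 0.483 FPKM. Rspo3 stood at 1.94 to 5.37 FPKM. Nkd1, which binds Dishevelled, led the intracellular genes with a nearly even 21 to 23.8 FPKM.

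**Figure D1:**
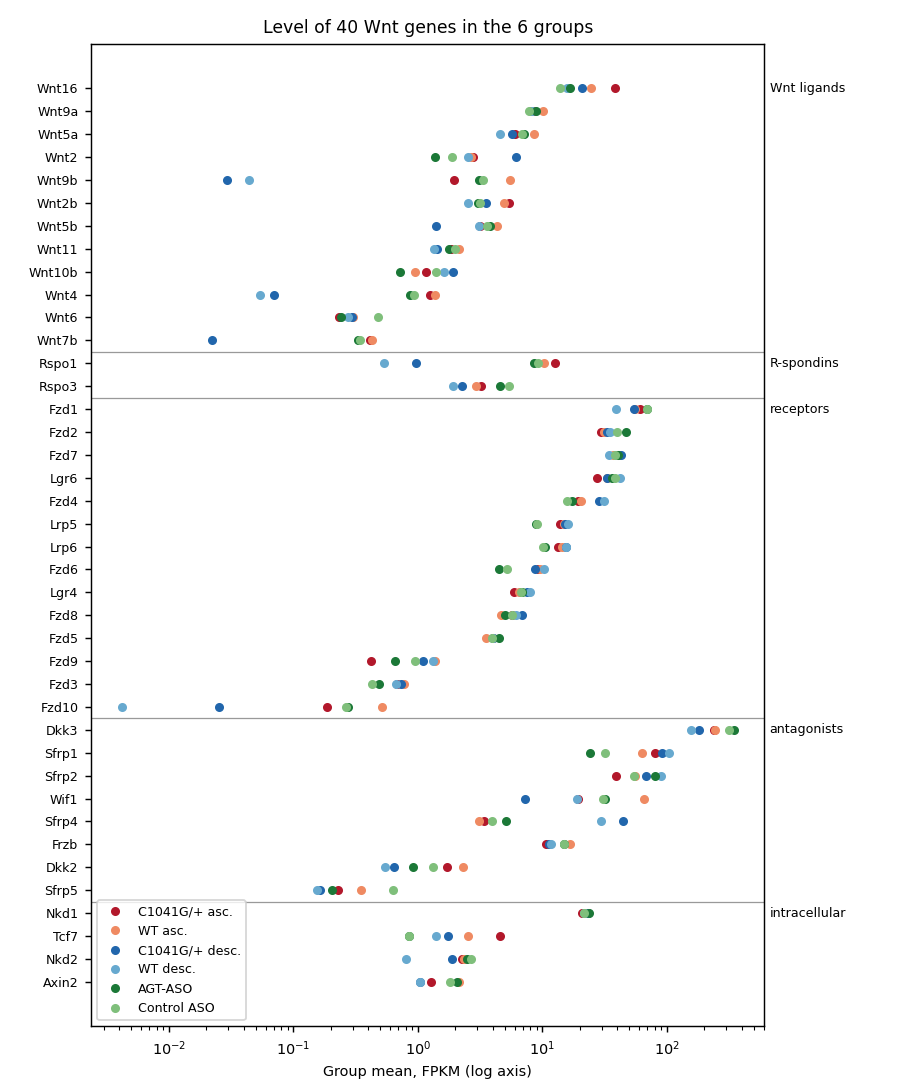
Mean level of the 40 genes that reached 1 CPM in at least 1 group, in FPKM on a log axis, by role (rows) and group (colours); 1 point is the mean of 4 libraries (untreated) or 5 libraries (antisense), and a mean of 0 is not drawn. Dkk3, Sfrp1, Sfrp2 and Fzd1 lie farthest to the right, and Rspo1, Wnt4, Wnt7b and Wnt9b show descending aorta far to the left of ascending aorta.

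The other 14 genes stayed under 1 CPM in every group. Of these, Wnt3a and Wnt8a had no count in any library, which bounds them at 3 counts over a group. Summed over each group, Wnt3 had at most 2 counts, Dkk4 at most 7, Rspo4 at most 1, Dkk1 at most 5, Wnt8b at most 8, Notum at most 14, Wnt10a at most 15 and Wnt1 at most 19. Wnt7a had 60 and 37 counts in C1041G/+ and wild-type ascending aorta and 0 in both descending groups. Rspo2 had at most 36 counts over a group, Lgr5 at most 70 and Lef1, a partner of β-catenin, at most 121. Low ligand genes included neighbours of higher ones. Wnt9b and Wnt3 are 24.3 kb apart on chromosome 11 with no protein-coding gene between them, and Wnt10b and Wnt1 11.7 kb apart on chromosome 15. Wnt9b reached 24.7 ± 13.1 CPM in wild-type ascending aorta (SD, n = 4), where Wnt3 had 0 counts, and Wnt10b reached 6.56 ± 0.472 CPM in C1041G/+ descending aorta, where Wnt1 had 18 counts.

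Tests were made with edgeR's quasi-likelihood F test across all genes, and every adjusted p below is its Benjamini-Hochberg value over all genes tested in that comparison unless another tool is named; a gene is said to pass at an adjusted p of at most 0.05. A log2 fold change is given with its standard error (SE). The count filter kept 41 of the 54 genes in the untreated libraries and 43 in the antisense libraries. In all, 23 genes passed in at least 1 comparison. Counts at an unadjusted p below 0.05 are given without the share of all genes at that cut. They are therefore not read as a result about these genes.

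The first comparison was of genotype in ascending aorta, together with the aortic root the usual site of aneurysm in Marfan syndrome. In C1041G/+ ascending aorta 3 of the 41 genes were lower than in wild type and 0 higher: Wif1, Fzd9 and Axin2, an antagonist, a receptor and a feedback regulator. They were 7.3% of the genes tested, against 2.19% of all 15645 genes tested, of which 1.00% were lower and 1.18% higher. At an unadjusted p below 0.05 there were 10 of the 41. The median log2 fold change was -0.08, beside -0.01 over all genes tested.

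Wif1 encodes Wnt inhibitory factor 1, a secreted protein that binds Wnt ligands (chromosome 10, 121033960 to 121100650, plus strand of GRCm38). It had 38.1, 31.3, 67 and 50.9 CPM in C1041G/+ ascending aorta, libraries 2, 4, 6 and 8 in turn, against 106, 135, 211 and 184 CPM in wild-type libraries 1, 3, 5 and 7. All C1041G/+ libraries lay below all wild-type libraries. The log2 fold change was -1.77 ± 0.24 (adjusted p = 0.00089). In the same libraries 8 cartilage marker genes summed to 67.4, 37.0, 88.9 and 81.0 CPM in C1041G/+ and 85.6, 165, 338 and 222 CPM in wild-type ascending aorta, with Matn1 at 0 in both groups; 2 of the 7 tested were lower and 0 higher. With the mean of these markers as a covariate, an alternative chosen after seeing the data, the log2 fold change of Wif1 was -0.90 and the adjusted p 0.16. Fibroblast markers summed to 3355 to 3860 CPM in C1041G/+ and 3948 to 5519 CPM in wild-type ascending aorta, and of 7 tested 1, Dpep1, was higher and 1, Dpt, lower in C1041G/+. Brown adipocyte markers summed to 72.9 to 129 CPM in C1041G/+ and 132 to 236 CPM in wild-type ascending aorta.

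Axin2, a scaffold of the complex that breaks down β-catenin and a widely used target gene of the pathway (chromosome 11, 108920349 to 108950783, plus strand), had 6.87, 7.50, 7.42 and 6.40 CPM in C1041G/+ and 9.22, 10.8, 17.5 and 9.57 CPM in wild-type ascending aorta. The groups did not overlap, and wild-type library 5 was the highest. Its log2 fold change was -0.74 ± 0.17 (adjusted p = 0.033). The call was lost in 10 of 21 alternatives, among them 6 of the 8 fits that left out 1 library (adjusted p = 0.051 to 0.096). Without wild-type library 5 the log2 fold change was -0.49 (adjusted p = 0.093), and -0.32 with the cartilage covariate (adjusted p = 0.73). An unnamed gene model, Gm11670, overlaps exons of Axin2 on the opposite strand, and the strand setting of the counts was not given.

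Fzd9, a Frizzled receptor known in mice from bone formation (chromosome 5, 135248938 to 135251230, minus strand), had 0.939, 0.761, 1.25 and 0.90 CPM in C1041G/+ and 0.853, 3.35, 4.79 and 3.73 CPM in wild-type ascending aorta. Wild-type library 1 lay within the C1041G/+ range, and the other 3 wild-type libraries above it. The log2 fold change was -1.72 ± 0.37 (adjusted p = 0.017). It no longer passed with the mouse number as a random block in limma voom (adjusted p = 0.11), nor in limma voom with no block (adjusted p = 0.10), and with the cartilage covariate the log2 fold change was -0.14 (adjusted p = 0.95). Leaving out 1 library ended its call in 3 of 8 fits. Wild-type library 1, the lowest of its group for Fzd9, was also the lowest for the cartilage sum, for Wnt9b and for Dkk2. With the fibroblast or the endothelial markers as a covariate, also chosen after seeing the data, Wif1, Axin2 and Fzd9 each still passed. With the heart muscle markers as a covariate 1 of these 3 genes, Wif1, still passed. The part of cartilage content in these 3 differences was not tested in another way.

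Wnt16, the most abundant ligand and known for its role in cortical bone, did not pass. It had 186, 182, 156 and 142 CPM in C1041G/+ and 108, 84.1, 128 and 112 CPM in wild-type ascending aorta, without overlap, a difference of 0.62 ± 0.19 on the log2 scale (adjusted p = 0.099). Under DESeq2 its adjusted p was 0.023, and in a fit of both ascending groups alone 0.042. Wif1, Axin2 and Wnt16 were the 3 of 41 genes whose groups did not overlap, 7.3%, where 9.50% of all genes tested showed this. The other genes under an unadjusted p of 0.05 were Sfrp1 (0.33 ± 0.11 on the log2 scale), Wnt9b (-1.47 ± 0.50), Frzb (-0.66 ± 0.23), Fzd10 (-1.44 ± 0.58), Wnt5b (-0.47 ± 0.19) and Wnt5a (-0.50 ± 0.21), with adjusted p of 0.13 to 0.25. Tcf7, which encodes the T-cell factor Tcf1, had 34.9, 4.89, 6.38 and 1.55 CPM in C1041G/+ and 6.93, 14.6, 2.70 and 2.25 CPM in wild-type ascending aorta. It was highest in C1041G/+ library 2 and wild-type library 3. The thymus markers Dntt, Rag1, Ptcra, Cd8b1 and Foxn1 summed highest there too, to 89.3 and 33.8 CPM, with Foxn1 at 0 in every group.

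In descending aorta 5 of the 41 genes passed by genotype, 3 higher in C1041G/+ (Fzd1, Nkd2 and Wnt2) and 2 lower (Wnt5b and Wif1). They were 12.2% of the genes tested, against 1.21% of all 15645 genes, 0.678% higher and 0.531% lower. At an unadjusted p below 0.05 there were 9. The median log2 fold change was 0.14 by the fit and 0.11 with the near-empty Wnt7b and Fzd10 at their lower bounds, beside -0.00 over all genes tested. Wif1 was the 1 gene that passed in both regions.

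Wif1 had 13.9, 15.5, 18.1 and 22.6 CPM in C1041G/+ and 45.2, 46.2, 47.1 and 44.7 CPM in wild-type descending aorta. The wild-type libraries lay within a few CPM of each other and the C1041G/+ libraries all lay below them. In log2 terms the fold change was -1.38 ± 0.24 (adjusted p = 0.0082). Cartilage markers summed to 68.6 to 116 CPM in C1041G/+ and 47.5 to 94.4 CPM in wild-type descending aorta, 0 of 7 passed, and adjusting for them left a log2 fold change of -1.13 (adjusted p = 0.0017).

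Wnt5b, a ligand mainly of the β-catenin-independent branch with a known role in cartilage (chromosome 6, 119432531 to 119544347, minus strand), had 4.55, 3.28, 4.0 and 2.97 CPM in C1041G/+ and 6.47, 6.75, 9.02 and 10.9 CPM in wild-type descending aorta. Every C1041G/+ library was lower than every wild-type library. The log2 fold change was -1.17 ± 0.21 (adjusted p = 0.0058), and it passed under every alternative run. Wnt2, a ligand of the canonical branch known from lung and placenta (chromosome 6, 17988940 to 18030585, minus strand), had 12.6, 10.9, 20.6 and 11.7 CPM in C1041G/+ and 8.75, 4.52, 3.84 and 5.79 CPM in wild-type descending aorta. The groups did not overlap, and C1041G/+ library 6 stood highest. Its log2 fold change was 1.28 ± 0.30 (adjusted p = 0.048), at the edge of the threshold: it missed it in 12 of 21 alternatives, among them the fit without C1041G/+ library 6 (1.03, adjusted p = 0.16) and the fit with no count filter (1.28, adjusted p = 0.14).

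Fzd1, the most abundant Frizzled (chromosome 5, 4753839 to 4758035, minus strand), had 216, 239.8, 233 and 226 CPM in C1041G/+ and 159.9, 162, 170.2 and 160.5 CPM in wild-type descending aorta. Both groups were tight and did not overlap. The log2 fold change was 0.49 ± 0.10 (adjusted p = 0.017). Nkd2, a Dishevelled-binding antagonist inside the cell (chromosome 13, 73818534 to 73847631, minus strand), had 9.94, 8.72, 8.75 and 9.01 CPM in C1041G/+ and 4.78, 3.71, 2.27 and 4.79 CPM in wild-type descending aorta. All C1041G/+ libraries stood above all wild-type libraries. Its log2 fold change was 1.22 ± 0.25 (adjusted p = 0.019). Leaving out 1 library ended the call in 3 of 8 fits for Fzd1 and 2 of 8 for Nkd2. For Nkd2 a random block for the mouse number in limma voom gave an adjusted p of 0.077, and limma voom with no block gave 0.048. Endothelial markers summed to 2035 to 2379 CPM in C1041G/+ and 2405 to 3257 CPM in wild-type descending aorta, without overlap, although 0 of 7 passed. With them as a covariate, chosen after seeing the data, the log2 fold change was 0.38 for Fzd1 (adjusted p = 0.17) and 1.09 for Nkd2 (adjusted p = 0.14).

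Groups did not overlap for these 5 genes and Wnt7b, 6 of 41, where 7.29% of all genes tested showed this. Wnt7b had 8 counts in C1041G/+ and 0 in wild-type descending aorta, at least 2.65-fold higher if the wild-type group is set to 3 counts in all, and did not pass (adjusted p = 0.18). Fzd10 had 6 counts in C1041G/+ and 1 in wild-type descending aorta, a ratio of 5.96 with an exact 95% counting interval of 0.723 to 274. Such floors and intervals describe counting error alone, because molecules were not tagged before amplification.

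**Figure D2:**
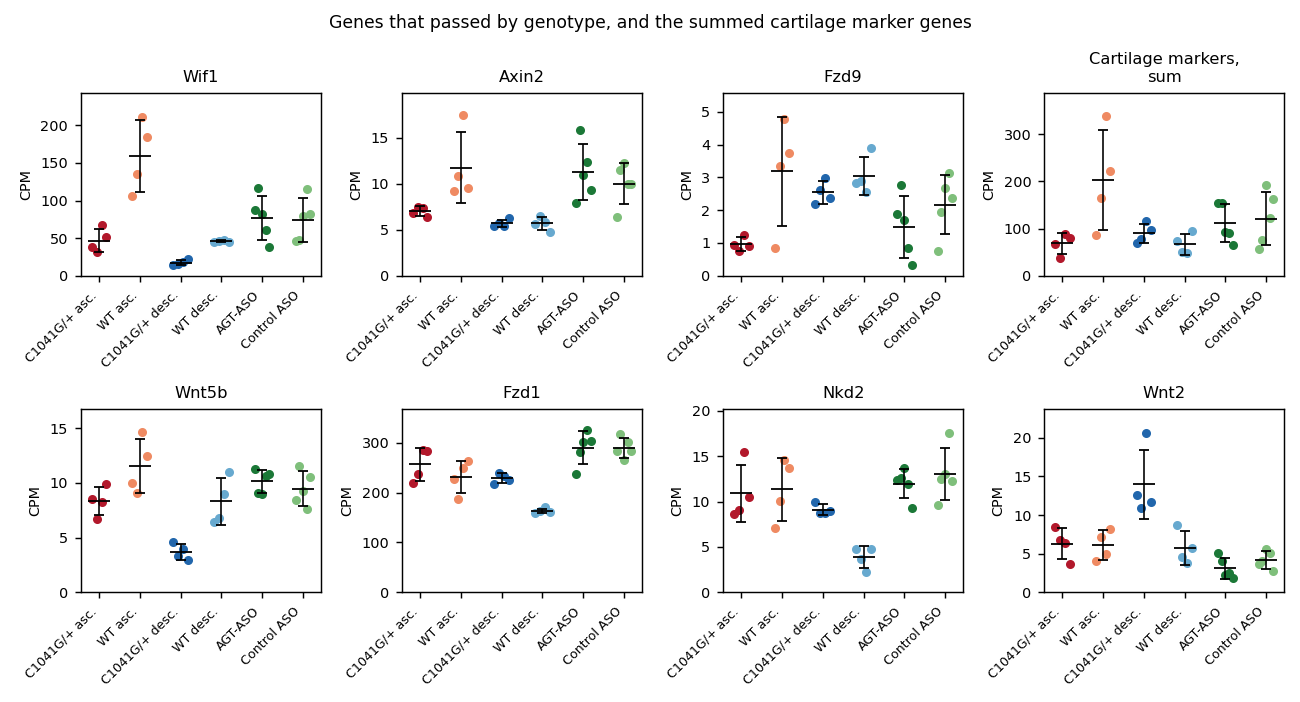
CPM of the 7 genes that passed by genotype in at least 1 region and the summed CPM of 8 cartilage marker genes, by group; points are libraries, the bar is the mean and the whiskers the SD (n = 4 untreated, n = 5 antisense, scaled apart). Wif1 lies lower in C1041G/+ than in wild type in both regions, whereas Fzd1, Nkd2 and Wnt2 differ by genotype in descending aorta, where wild-type libraries are the low ones.

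Promoter sequences of 4 of these genes are shown because they differed by genotype with opposite signs. Wif1 was lower in C1041G/+ mice in both regions, and Axin2 passed as lower in ascending aorta only. Wnt5b passed as lower and Fzd1 as higher in descending aorta only. Each window holds 250 bases before and 50 after the RefSeq start (GRCm38.p6), written in the direction of the gene, and capitals mark the Tcf/Lef core motifs CTTTGA and CTTTGT on either strand (TCAAAG and ACAAAG). Wif1 lies on the plus strand at chr10:121033754-121034053, Axin2 on the plus strand at chr11:108920099-108920398, Fzd1 on the minus strand at chr5:4758167-4758466 and Wnt5b on the minus strand at chr6:119449337-119449636, 1 of its 3 windows.
Wif1: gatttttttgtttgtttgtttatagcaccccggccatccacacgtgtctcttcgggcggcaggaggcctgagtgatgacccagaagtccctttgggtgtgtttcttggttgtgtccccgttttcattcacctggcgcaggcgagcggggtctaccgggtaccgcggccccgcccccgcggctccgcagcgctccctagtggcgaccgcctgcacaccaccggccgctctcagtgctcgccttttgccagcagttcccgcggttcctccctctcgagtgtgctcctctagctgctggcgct
Axin2: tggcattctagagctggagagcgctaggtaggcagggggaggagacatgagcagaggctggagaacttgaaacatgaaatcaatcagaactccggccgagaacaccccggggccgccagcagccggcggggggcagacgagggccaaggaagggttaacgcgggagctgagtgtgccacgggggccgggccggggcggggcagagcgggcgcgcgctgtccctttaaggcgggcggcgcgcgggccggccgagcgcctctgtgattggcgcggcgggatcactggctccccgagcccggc
Fzd1: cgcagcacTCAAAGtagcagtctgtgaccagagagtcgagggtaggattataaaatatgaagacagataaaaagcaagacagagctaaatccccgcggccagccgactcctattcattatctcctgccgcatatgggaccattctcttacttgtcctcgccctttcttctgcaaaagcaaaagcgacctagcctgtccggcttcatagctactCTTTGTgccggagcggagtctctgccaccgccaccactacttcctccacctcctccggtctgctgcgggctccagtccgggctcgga
Wnt5b: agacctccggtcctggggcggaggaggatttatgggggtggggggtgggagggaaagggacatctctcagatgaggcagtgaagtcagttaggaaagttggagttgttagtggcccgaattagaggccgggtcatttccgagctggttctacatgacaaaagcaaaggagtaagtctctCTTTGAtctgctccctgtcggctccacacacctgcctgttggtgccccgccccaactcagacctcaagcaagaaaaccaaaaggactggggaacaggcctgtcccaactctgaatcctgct
Fzd1 held 2 matches and this Wnt5b window 1, while the letters were not found in the Wif1 and Axin2 windows. Windows not shown held 0 matches for Nkd2 and Wnt2, which were higher in C1041G/+ descending aorta. The Fzd9 window, of a gene lower in C1041G/+ ascending aorta, also held 0. The remaining Wnt5b windows held 0 as well, so the matches did not follow the sign of the difference. Of the 54 genes, 36 had a window; 6 of them held CTTTGA (16.7%, against 18.2% of all 27025 genes with a window) and 7 held CTTTGT (19.4%, against 21%). The longer forms CTTTGAA and CTTTGTT, which contain the short ones, were found in 1 and 3 of the 36, against 5.9% and 6.7% of all genes. These shares lie near those of all genes, and a match is a description of letters only.

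The difference between the genotype effects in the 2 regions was tested as an interaction. Of the 41 genes, 0 passed edgeR's test, as did 0 under DESeq2, and 1 of all 15645 genes did (0.00639%). At an unadjusted p below 0.05 there were 10 of the 41, among them Nkd2 (-1.28 ± 0.35, adjusted p = 0.48), Sfrp1 (0.53 ± 0.16, adjusted p = 0.57) and Axin2 (-0.74 ± 0.25, adjusted p = 0.71). The test thus showed no gene here whose genotype effect differed between ascending and descending aorta, and it did not show that the effects were alike. For Wif1 the difference of the effects was -0.38 ± 0.33 on the log2 scale (adjusted p = 1).

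More of these genes passed by region than by genotype. In C1041G/+ mice 10 of 41 genes were higher and 7 lower in ascending than in descending aorta, 41.5% of those tested, against 9.92% of all genes (6.41% higher and 3.51% lower). In wild-type mice 14 were higher and 4 lower, 43.9%, against 11.1% of all genes (7.82% higher and 3.31% lower). In both genotypes these shares were above those of all genes. The median log2 fold change was 0.09 in C1041G/+ mice and 0.48 in wild-type mice, also with Wnt7b and Fzd10 at their lower bounds, beside -0.01 over all genes in each. At the level of roles, 8 of 12 tested ligands passed in C1041G/+ mice and 7 of 12 in wild-type mice, 4 of 14 receptors in C1041G/+ and 3 in wild-type mice, and 4 of 7 antagonists in C1041G/+ and 5 in wild-type mice. The 2 comparisons share no library, but they come from the same fit with a shared estimate of the spread. In both, 12 genes passed, out of 17 in C1041G/+ and 18 in wild-type mice. The share of all genes that passed in both was not counted, so this overlap is not read as a result about these genes.

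Among the genes that passed the count filter, the 4 widest differences toward the ascending aorta in C1041G/+ mice were those of 3 ligands and an R-spondin. Wnt9b, known from mouse kidney tubule formation, had 15.9, 3.86, 12.4 and 3.40 CPM in C1041G/+ ascending and 0.0562, 0.170, 0.16 and 0.146 CPM in C1041G/+ descending aorta. In wild-type mice it had 5.97, 36.1, 26.7 and 29.9 CPM in ascending and 0.217, 0.152, 0.116 and 0.316 CPM in descending aorta. It was nearly absent from descending aorta and varied several-fold among ascending libraries. The log2 fold changes were 5.99 ± 0.85 and 6.89 ± 0.78 (adjusted p = 0.00023 in C1041G/+ and 2.1e-05 in wild-type mice).

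Wnt4, needed for kidney tubules and the female reproductive tract in mice, had 9.69, 3.15, 5.07 and 3.2 CPM in C1041G/+ ascending and 0.449, 0.113, 0.320 and 0.292 CPM in C1041G/+ descending aorta. Wild-type mice had 2.56, 7.45, 4.94 and 8.23 CPM in ascending and 0.217, 0.305, 0.116 and 0.263 CPM in descending aorta. The regions did not overlap in either genotype, with log2 fold changes of 4.14 ± 0.49 in C1041G/+ and 4.63 ± 0.51 in wild-type mice (adjusted p = 1.4e-05 in C1041G/+ and 5.1e-06 in wild-type mice). Wnt7b, a ligand made by macrophages in the regressing vessels of the mouse eye, had 1.83, 3.10, 1.58 and 1.55 CPM in C1041G/+ ascending and 0.0562, 0.227, 0.0533 and 0.0974 CPM in C1041G/+ descending aorta, and the log2 fold change was 4.15 ± 0.54 (adjusted p = 8.9e-05). Wild-type mice had 2.93, 2.56, 0.866 and 2.01 CPM in ascending aorta and 0 counts in descending aorta, at least 51.9-fold higher if the descending group is set to 3 counts in all (adjusted p = 6.6e-06). Its exons are overlapped on the opposite strand by the transcript AU022754. The related Wnt7a, removed by the count filter in these libraries, was at least 18.6-fold higher in C1041G/+ and at least 11.2-fold higher in wild-type ascending than descending aorta.

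Rspo1, which amplifies Wnt signals and is needed for ovary development, had 30.3, 29.1, 21.1 and 18.2 CPM in C1041G/+ ascending and 1.18, 1.93, 2.56 and 1.85 CPM in C1041G/+ descending aorta. In wild-type mice it had 24.0, 23.4, 13.8 and 18.7 CPM in ascending and 1.52, 1.02, 0.175 and 1.42 CPM in descending aorta. Every ascending library exceeded every descending one several-fold, with log2 fold changes of 3.71 ± 0.33 in C1041G/+ and 4.25 ± 0.35 in wild-type mice (adjusted p = 7.3e-07 in C1041G/+ and 3.4e-07 in wild-type mice). Sfrp4, a secreted antagonist whose loss causes a bone disease in humans, was the widest difference toward the descending aorta. It had 15.9, 11.7, 15 and 13.9 CPM in C1041G/+ ascending and 139, 156, 230.2 and 219 CPM in C1041G/+ descending aorta, and 14.8, 10.9, 12.6 and 13.8 CPM in wild-type ascending and 166, 89.2, 78.4 and 166 CPM in wild-type descending aorta. No library of one region reached the range of the other, and the log2 fold changes were -3.72 ± 0.26 in C1041G/+ and -3.26 ± 0.26 in wild-type mice (adjusted p = 1.2e-07 in C1041G/+ and 3.8e-07 in wild-type mice).

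Mesothelial markers moved with region in the same way: 8 of 8 were higher in ascending than in descending aorta in both genotypes, with median log2 fold changes of 4.51 in C1041G/+ and 5.38 in wild-type mice. Of the heart muscle markers 6 of 10 were higher in C1041G/+ and 8 of 10 in wild-type mice. The part of mesothelium in the differences of Wnt9b, Wnt4, Wnt7b, Wnt7a and Rspo1 was not tested. With the heart muscle markers as a covariate, whose score itself separated the regions, Rspo1, Wnt4, Wnt7b and Sfrp4 were the 4 genes that still passed in both genotypes, 9.8% of those tested, where 2.58% of all genes passed in C1041G/+ and 1.87% in wild-type mice.

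**Figure D3:**
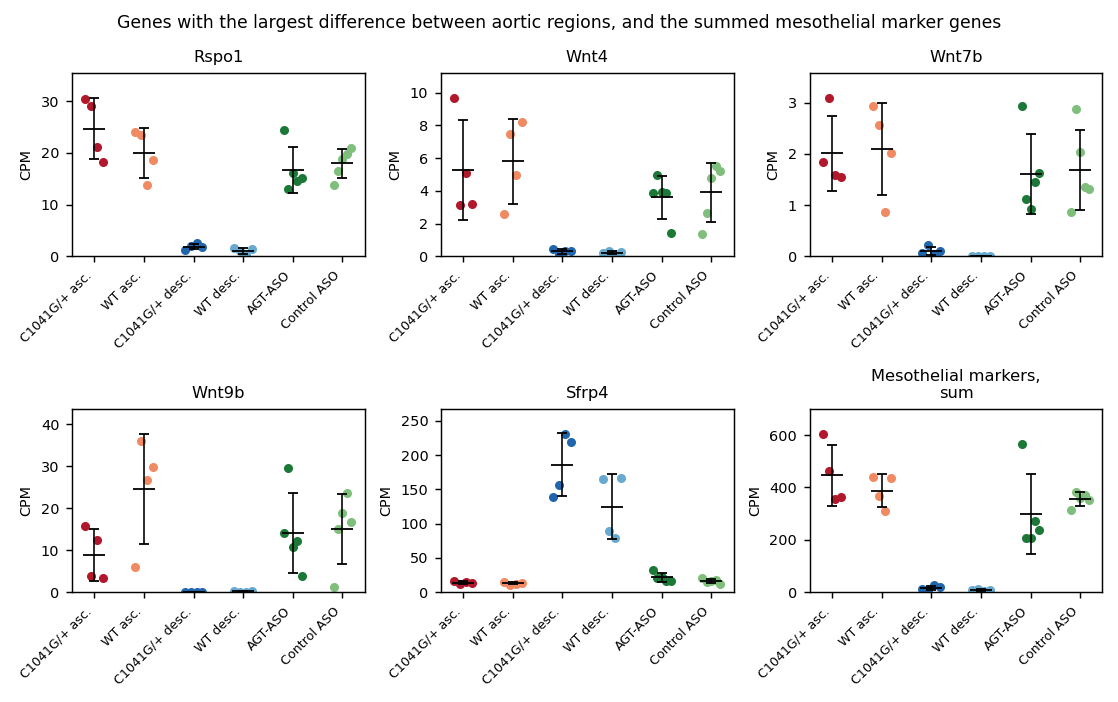
CPM of Rspo1, Wnt4, Wnt7b, Wnt9b and Sfrp4 and the summed CPM of 8 mesothelial marker genes, by group; points are libraries, the bar is the mean and the whiskers the SD (n = 4 untreated, n = 5 antisense, scaled apart). Descending libraries sit near 0 for the first 4 genes and for the marker sum, and high for Sfrp4.

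The regions differed in both genotypes for 7 more genes. Wif1 was higher in ascending than in descending aorta by 1.42 ± 0.24 in C1041G/+ and 1.80 ± 0.24 in wild-type mice on the log2 scale (adjusted p = 0.001 in C1041G/+ and 7.5e-05 in wild-type mice). Dkk2, which blocks Lrp5 and Lrp6, stood at 6.38 ± 1.68 CPM in C1041G/+ ascending and 2.37 ± 0.311 CPM in C1041G/+ descending aorta, and at 8.48 ± 2.37 and 2.02 ± 1.03 CPM in wild-type ascending and descending aorta (SD, n = 4 each). Its log2 fold changes were 1.42 ± 0.30 and 2.07 ± 0.30 (adjusted p = 0.0035 in C1041G/+ and 0.0001 in wild-type mice). Fzd10 had 51 counts in C1041G/+ ascending and 6 in C1041G/+ descending aorta (log2 fold change 2.85 ± 0.83, adjusted p = 0.036), and these groups overlapped in CPM. In wild-type mice it had 140 counts in ascending and 1 in descending aorta, a ratio of 127 with an exact 95% counting interval of 22.4 to 5045.

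Wnt2b, a canonical ligand that acts with Wnt2 in lung formation in mice, had 23.7, 23.3, 20.4 and 23.9 CPM in C1041G/+ ascending and 13.7, 13.5, 16.5 and 16 CPM in C1041G/+ descending aorta, and 27.6, 20.9, 15.8 and 18.8 CPM in wild-type ascending and 15.2, 11.6, 7.97 and 7.74 CPM in wild-type descending aorta. The regions did not overlap in either genotype, and the log2 fold changes were 0.61 ± 0.19 in C1041G/+ and 0.96 ± 0.19 in wild-type mice (adjusted p = 0.049 in C1041G/+ and 0.0021 in wild-type mice). In C1041G/+ mice its call was lost in 11 of 18 alternatives, among them all 8 fits that left out 1 library, and in wild-type mice it was lost with the heart muscle covariate. Wnt16 was higher in ascending than in descending aorta by 0.86 ± 0.19 in C1041G/+ and 0.65 ± 0.19 in wild-type mice (adjusted p = 0.0056 in C1041G/+ and 0.031 in wild-type mice). Fzd4, a receptor known from retinal vessels, was lower in ascending aorta, with 119, 139, 129 and 135 CPM in C1041G/+ ascending and 175, 185, 202 and 212 CPM in C1041G/+ descending aorta, and 157, 152, 122 and 123 CPM in wild-type ascending and 244, 208, 196 and 195 CPM in wild-type descending aorta. The regions did not overlap, and the log2 fold changes were -0.57 ± 0.10 and -0.61 ± 0.10 (adjusted p = 0.00076 in C1041G/+ and 0.00032 in wild-type mice). Summed endothelial markers stood at 1302 to 2007 CPM in C1041G/+ ascending and 2035 to 2379 CPM in C1041G/+ descending aorta, 1428 to 1867 CPM in wild-type ascending and 2405 to 3257 CPM in wild-type descending aorta. Of the 7 markers 1 was lower in ascending aorta of C1041G/+ mice and 5 of wild-type mice, while Kdr, a VEGF receptor gene, was higher in both (3.35 ± 0.25 in C1041G/+ and 3.08 ± 0.25 in wild-type mice on the log2 scale). The part of endothelium was not tested. Wnt10b, known for holding back fat cell formation, was lower in ascending aorta by log2 fold changes of -0.71 ± 0.21 in C1041G/+ and -0.78 ± 0.21 in wild-type mice (adjusted p = 0.034 in C1041G/+ and 0.02 in wild-type mice). In wild-type mice the regions overlapped for Wnt10b and for Wnt16. Leaving out 1 library ended the call in C1041G/+ mice in 6 of 8 fits for Wnt10b and 5 of 8 for Fzd10, and in wild-type mice in 3 of 8 for Wnt10b and 6 of 8 for Wnt16.

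Of the remaining genes, 5 passed by region in C1041G/+ mice and not in wild-type mice, a contrast that the interaction test did not show for any of them. Wnt5b was higher in ascending than in descending aorta (1.17 ± 0.21 on the log2 scale, adjusted p = 0.00073), while Wnt2 (-1.14 ± 0.30, adjusted p = 0.019), Fzd9 (-1.40 ± 0.37, adjusted p = 0.02), Sfrp2 (-0.79 ± 0.23, adjusted p = 0.046) and Lgr4 (-0.35 ± 0.09, adjusted p = 0.025) were lower. The call was lost in 10 of 18 alternatives for Sfrp2 and in 8 of 18 for Lgr4, in each with 5 of the 8 fits that left out 1 library among them, and the regions overlapped for Lgr4. Leaving out 1 library ended the call in 4 of 8 fits for Fzd9 and 2 of 8 for Wnt2. In wild-type mice and not in C1041G/+ mice 6 genes passed. Nkd2 (1.54 ± 0.25, adjusted p = 0.00032), Axin2 (1.05 ± 0.18, adjusted p = 0.00042), Wnt5a (0.90 ± 0.21, adjusted p = 0.0094), Dkk3 (0.65 ± 0.14, adjusted p = 0.0037) and Fzd1 (0.50 ± 0.10, adjusted p = 0.0018) were higher in ascending aorta, and Sfrp1 (-0.72 ± 0.11, adjusted p = 0.00016) lower. Other tissue markers were higher in wild-type ascending aorta as well: 4 of 7 of fibroblasts, 3 of 7 of cartilage and 4 of 5 of Schwann cells, against 1 of each list in C1041G/+ mice, with 0 lower. Their sums in wild-type mice were 3948 to 5519 CPM in ascending and 1917 to 3995 CPM in descending aorta for fibroblasts, 85.6 to 338 and 47.5 to 94.4 CPM for cartilage and 31.7 to 39.2 and 11.6 to 18.96 CPM for Schwann cells. Their part in these regional differences was not tested. Several of these genes also passed by genotype, and both tests use the same libraries. Nkd2, for example, averaged 10.9 ± 3.12 CPM in C1041G/+ and 11.4 ± 3.48 CPM in wild-type ascending aorta, and 9.10 ± 0.574 CPM in C1041G/+ and 3.89 ± 1.19 CPM in wild-type descending aorta, so that the wild-type descending group stood apart.

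With the mouse number as a replicate block, which compares both regions within a mouse, 21 genes passed in C1041G/+ and 26 in wild-type mice. These were 51.2% and 63.4% of the genes tested, where 14.8% of all genes passed the same fit in C1041G/+ and 15.5% in wild-type mice. Those added in C1041G/+ mice were Dkk3 (0.40 ± 0.08), Tcf7 (1.18 ± 0.24), Rspo3 (0.48 ± 0.13) and Fzd8 (-0.26 ± 0.08), with adjusted p of 0.0023, 0.0045, 0.019 and 0.049. Those added in wild-type mice were Fzd8 (-0.39 ± 0.09), Lgr4 (-0.29 ± 0.06), Rspo3 (0.58 ± 0.13), Wnt9a (0.29 ± 0.07), Sfrp2 (-0.66 ± 0.15), Lgr6 (-0.35 ± 0.10), Wnt5b (0.48 ± 0.14) and Tcf7 (0.80 ± 0.24), with adjusted p of 0.0053 to 0.041. Rspo3, an R-spondin with a known role in vessel development, and Fzd8 and Tcf7 passed in both genotypes in this fit. Thymus markers summed higher in the ascending than in the descending library of 4 of 4 C1041G/+ and 3 of 4 wild-type mice, at 1.95 to 89.3 CPM in ascending and 0.633 to 22.1 CPM in descending aorta of C1041G/+ mice and 1.24 to 33.8 CPM in ascending and 0.895 to 12.99 CPM in descending aorta of wild-type mice. Their part in the difference of Tcf7 was not tested.

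Without mice 2 and 3, which had the highest thymus sums of their genotype in ascending aorta, a fit with the block chosen after seeing the data gave 18 of 40 genes in C1041G/+ (45%, where 11.0% of all genes passed) and 21 in wild-type mice (52.5%, where 15.3% did). Tcf7 then had a log2 fold change of 0.95 in C1041G/+ (adjusted p = 0.031) and 0.45 in wild-type mice (adjusted p = 0.29). With no block and without the ascending libraries of these mice, Tcf7 was at -0.09 in C1041G/+ and 0.10 in wild-type mice (adjusted p = 0.98 and 0.97). Without mice 2 and 3 Fzd8 no longer passed in C1041G/+ mice (adjusted p = 0.25) but did in wild-type mice (adjusted p = 0.016), and Rspo3 passed in both. With the heart muscle covariate and no block, Rspo3 was at -0.10 in C1041G/+ and -0.12 in wild-type mice (adjusted p = 0.97 and 0.99).

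**Figure D4:**
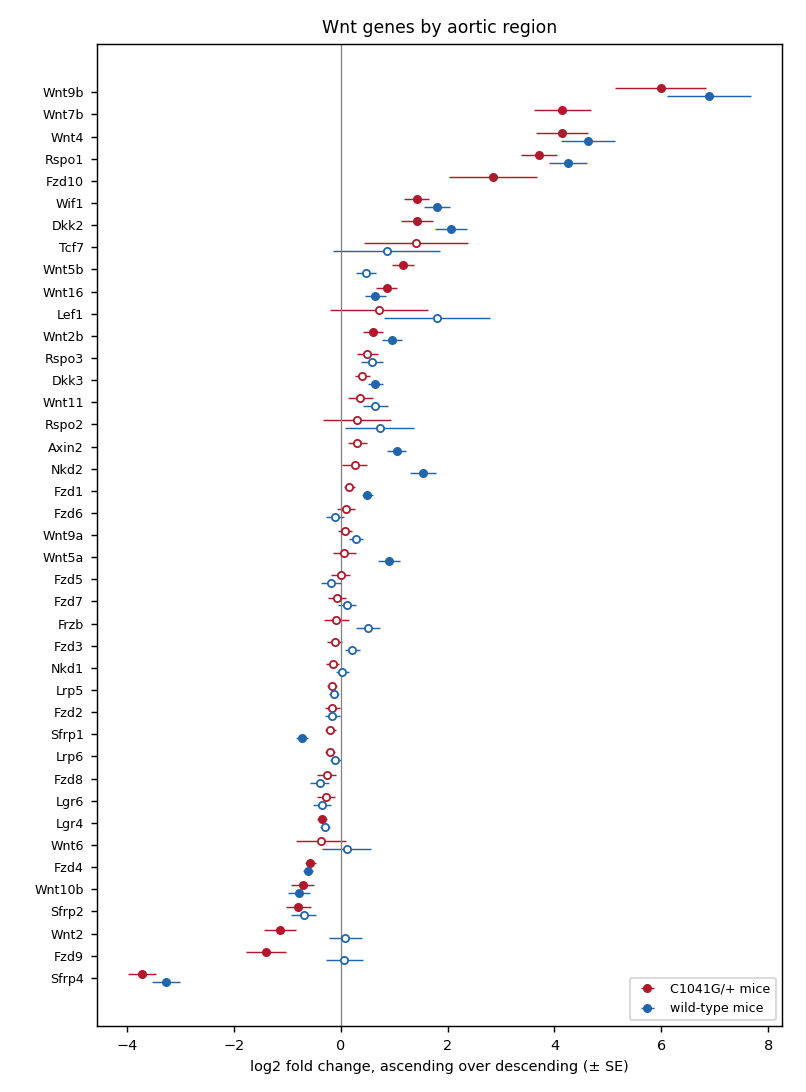
log2 fold change (± SE) of ascending over descending aorta for the 41 genes tested, in C1041G/+ mice (upper point of each row) and wild-type mice (lower point); filled points passed at an adjusted p of at most 0.05, and the wild-type values of Wnt7b and Fzd10 are left out because descending aorta held 0 and 1 counts. Wnt9b, Wnt7b, Wnt4 and Rspo1 lie far to the right and Sfrp4 far to the left in both genotypes where drawn.

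AGT-ASO was compared with control ASO in ascending aorta of C1041G/+ mice. Agt itself, which is expressed mainly in liver, had 0.0960 to 1.46 CPM under AGT-ASO and 0.301 to 0.785 CPM under control ASO, a level too low to check the treatment in this tissue. Of 43 genes tested, 0 passed edgeR's test, where 10 of all 14981 genes did (0.0668%); at an unadjusted p below 0.05 there were 7, and DESeq2 passed 3, 7.0% of them, where 1.93% of all genes passed DESeq2. The median log2 fold change was -0.03, beside -0.01 over all genes. Groups did not overlap for 2 of the 43, Sfrp2 and Sfrp1, where 2.46% of all genes showed this.

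Sfrp2 had 157, 146, 165, 202 and 202 CPM with AGT-ASO, against 142, 117, 104, 119.6 and 109.5 CPM with control ASO. All 5 AGT-ASO libraries were above all 5 control libraries, and the log2 fold change was 0.56 ± 0.10 (adjusted p = 0.057 in edgeR and 0.00039 in DESeq2). Sfrp1, its close relative, had 109.9, 106, 103, 105 and 108 CPM with AGT-ASO, against 114, 153, 168, 136 and 125 CPM with control ASO. The AGT-ASO libraries lay within a narrow range below every control library, and the log2 fold change was -0.39 ± 0.09 (adjusted p = 0.1 in edgeR and 0.011 in DESeq2). Wnt10b had 2.11, 1.58, 3.93, 2.62 and 2.08 CPM with AGT-ASO, against 6.14, 5.41, 4.82, 4.14 and 3.17 CPM with control ASO, which overlapped through AGT-ASO library 18, with a log2 fold change of -0.94 ± 0.26 (adjusted p = 0.17 in edgeR and 0.032 in DESeq2). The heart muscle marker sum was lower in every AGT-ASO library than in every control library, by a narrow margin (highest 717 CPM with AGT-ASO, lowest 722 CPM with control ASO), and 0 of the 9 markers tested passed. With them as a covariate the log2 fold changes were 0.26 for Sfrp2, -0.36 for Sfrp1 and -1.39 for Wnt10b (edgeR adjusted p = 0.71, 0.55 and 0.28). Mitochondrial genes held 3.76 to 7.0% of the counts with AGT-ASO and 5.52 to 11.13% with control ASO, with overlap. The part of this difference was not tested. An unnamed gene model, Gm26771, overlaps exons of Sfrp2 on the opposite strand.

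Of the genes that differed by genotype, 0 passed with AGT-ASO. Wif1 averaged 77.0 ± 29.4 CPM with AGT-ASO, against 74.2 ± 28.8 CPM with control ASO (SD, n = 5 each; log2 fold change 0.05 ± 0.36, adjusted p = 0.97). Axin2 averaged 11.3 ± 3.04 CPM with AGT-ASO, against 10 ± 2.25 CPM with control ASO (0.18 ± 0.19, adjusted p = 0.75), and Fzd1 289.7 ± 32.9 CPM with AGT-ASO, against 289.6 ± 20.2 CPM with control ASO (-0.00 ± 0.08, adjusted p = 1). For Wnt5b the averages were 10.2 ± 1.04 CPM with AGT-ASO, against 9.48 ± 1.60 CPM with control ASO (0.10 ± 0.14, adjusted p = 0.82). These 4 differences were smaller than the SD between libraries. Fzd9, Wnt2 and Nkd2, the remaining genes that passed by genotype, had log2 fold changes of -0.54 ± 0.47, -0.44 ± 0.29 and -0.12 ± 0.15. Their adjusted p were 0.68, 0.56 and 0.8.

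**Figure D5:**
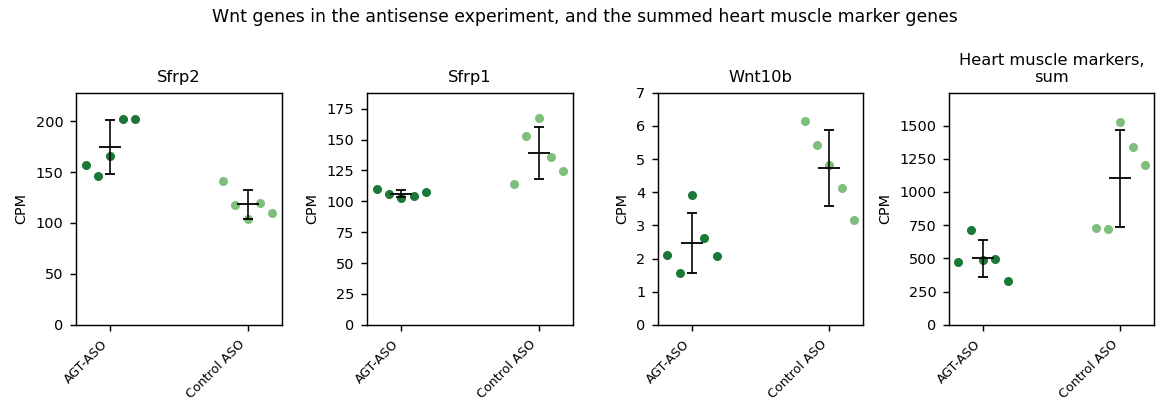
CPM of Sfrp2, Sfrp1 and Wnt10b and the summed CPM of 10 heart muscle marker genes in ascending aorta of C1041G/+ mice with AGT-ASO or control ASO; points are libraries, the bar is the mean and the whiskers the SD (n = 5 each). Sfrp2 is higher and Sfrp1 lower with AGT-ASO without overlap, and the marker sum is lower with AGT-ASO without overlap.

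A list of 80 other Wnt pathway genes, from secretion to known β-catenin targets, was examined beside them; 73 of them were tested. By genotype, 1 was higher in C1041G/+ ascending aorta and 0 lower (1.4%, where 2.19% of all genes passed), and 2 were higher in C1041G/+ descending aorta and 0 lower (2.7%, where 1.21% did). Ccn4, a secreted matrix-associated protein induced by Wnt1 in mouse cells, passed in both regions. It averaged 26.2 ± 3.53 CPM in C1041G/+ and 15.6 ± 4.72 CPM in wild-type ascending aorta (0.75 ± 0.18 on the log2 scale, adjusted p = 0.042), and 21.8 ± 3.75 CPM in C1041G/+ and 8.64 ± 1.55 CPM in wild-type descending aorta (1.33 ± 0.19, adjusted p = 0.0011; SD, n = 4 each). Cd44, the hyaluronan receptor, was higher in C1041G/+ descending aorta (0.59 ± 0.13, adjusted p = 0.04).

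By region, 3 of the 73 were higher and 2 lower in ascending than descending aorta of C1041G/+ mice, 6.8%, below the 9.92% of all genes. In wild-type mice 10 were higher and 2 lower, 16.4%, where 11.1% of all genes passed. Ptk7, a Wnt co-receptor of planar polarity, averaged 8.0 ± 2.71 CPM in C1041G/+ ascending and 0.984 ± 0.328 CPM in C1041G/+ descending aorta (3.01 ± 0.35, adjusted p = 9.7e-06). In wild-type mice its log2 fold change was 3.51 ± 0.35 (adjusted p = 1.5e-06). Sox9, a cartilage transcription factor, changed by 1.91 ± 0.39 in C1041G/+ and 2.34 ± 0.38 in wild-type mice, and Celsr2, a planar polarity cadherin, by -0.65 ± 0.14 and -0.59 ± 0.13. Apcdd1, a membrane-bound Wnt inhibitor, passed in wild-type mice (1.5 ± 0.24, adjusted p = 0.00034), as did Adgra2, a Wnt7 co-receptor (0.58 ± 0.11, adjusted p = 0.001). Rnf43, the ubiquitin ligase that removes Frizzled receptors, averaged 1.66 ± 0.849 CPM in wild-type ascending and 0.0423 ± 0.0553 CPM in wild-type descending aorta (adjusted p = 0.0011). In the interaction 0 of 73 passed in edgeR and 0 in DESeq2, with 8 at an unadjusted p below 0.05. With AGT-ASO 0 of 73 passed in edgeR and 1, Ctnnb1, in DESeq2, where 1.93% of all genes passed DESeq2. This DESeq2 count is therefore not read as a result about the list. At an unadjusted p below 0.05 there were 11. Ctnnb1, which encodes β-catenin, averaged 633 ± 54.7 CPM with AGT-ASO, against 519.6 ± 44.6 CPM with control ASO (adjusted p = 0.18 in edgeR).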

How the data were processed

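The deposited files hold counts per Ensembl gene, made by the authors with fastp and STAR 2.6.1d on mm10, per the submitters' processing notes; the counter, annotation release and strandedness were not given in the sources used here. Names, exon lengths and coordinates came from GENCODE M21 on GRCm38, which matched 54495 of 54532 identifiers (99.93%). The genes and lists were chosen with earlier results of these data known, and a gene was described by library where it passed in at least 1 comparison.

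Counts were scaled and tested with edgeR 4.0.16 in R 4.3.3 (TMM, filterByExpr by group, robust quasi-likelihood fit, two-sided). The 16 untreated libraries were fitted together (15645 genes, 12 residual degrees of freedom) and the 10 antisense libraries apart (14981 genes, 8 residual degrees of freedom); the test was checked on simulated data. Alternatives used DESeq2 1.42.0, limma 3.58.1 voom, other filters and scaling, marker scores as covariates (mean log2 CPM with 0.5 added) and fewer libraries.

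The numbers 1 to 8 occur in both regions. After removal of group means, all 8 same-number pairs correlated across genes at 0.204 to 0.367, against a mean of -0.041 for other pairs, and 6 of 8 ascending libraries correlated best with their own number. Same-numbered libraries were thus treated as paired regions of a mouse in the fits with a block. The main tests by genotype, region and interaction had no block, so their p-values leave this pairing out.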

Additional observations from a re-analysis of the deposited data

Results flagged for a closer look

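Only the 23 genes that passed in at least 1 comparison were screened. Of their 137 groups of 4 or 5 libraries with a value, 5 held 1 library far from the others. This was judged by its gap to the nearest one as a share of the group's range. By chance about 1 in 20 groups is flagged. Rspo1 stood high in AGT-ASO library 14, at 24.5 CPM. Dkk2 stood high in AGT-ASO library 15, at 6.93 CPM. Wnt10b stood high in wild-type ascending library 1, at 3.89 CPM, and Wnt2b low in C1041G/+ ascending library 6, at 20.4 CPM. Fzd10 had its only count of wild-type descending aorta in library 1, at 0.0544 CPM.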

How the results depend on the processing

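No direction of a gene that passed was reversed under any alternative run; 668 of their values kept the call and 128 lost it. In ascending aorta by genotype 3 genes passed, 1 with the heart muscle score in the fit, 0 with the cartilage score, 1 without C1041G/+ library 2 and wild-type library 3 together (the last 2 chosen after seeing the data), and 1 to 4 when 1 library was left out (1 without C1041G/+ library 2 or 4 or wild-type library 5). In descending aorta 5 passed, 3 with the endothelial score (chosen after seeing the data) and 2 to 5 with 1 library left out (3 without C1041G/+ library 2, 4 or 6, 2 without wild-type library 3). By region 17 passed in C1041G/+ mice, 4 with the heart muscle score, 11 without C1041G/+ library 2 and wild-type library 3 together and 11 to 14 with 1 library left out (11 without C1041G/+ descending library 6). In wild-type mice 18 passed, 4 with the heart muscle score and 16 to 19 with 1 library left out. The heart muscle score also lowered the share of all genes that passed by region. It was 2.58% beside 9.92% in C1041G/+ mice and 1.87% beside 11.1% in wild-type mice. With AGT-ASO 0 passed, 3 under DESeq2, 2 with no filter on low counts, 2 with the cartilage score (chosen after seeing the data) and 0 to 2 with 1 library left out (1 without AGT-ASO library 14, 2 without control ASO library 8). With the replicate block 21 and 26 genes passed by region, as named above; by genotype Nkd2 lost its call with the random block, Fzd9 missed the threshold in limma voom with and without it, and no other call changed. Except for the DESeq2 and replicate block fits described above, the other counts under alternatives lack the share of all genes in the same fit. They are therefore not read as a result about these genes. Genes under 1 CPM are limited by depth.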
